A study of Mus musculus with 16 samples.

Results

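The smooth muscle contractile genes described here are 10 genes of the contractile machinery of the gut wall, namely Acta2, Actg2, Myh11, Tagln, Cnn1, Des, Smtn, Myocd, Synpo2 and Mylk. They were chosen by name, with no measured value in the rule but with earlier results of these data known. The probes that carry one of these gene names on the arrays were taken, and all 10 were found among the 36711 genes measured. Colon RNA of 16 SWISS mouse pups (RjOrl:SWISS, an outbred stock kept under specific pathogen-free conditions) was taken at weaning and hybridised on 1-colour Agilent expression arrays, 1 array per pup. The 8 CSD pups were taken by hysterectomy late in gestation and raised by foster mothers that had delivered vaginally. The 8 VD pups were born vaginally, and VD dams exchanged their litters, so that no pup of either group was raised by its own dam. CSD pups came from mothers 3 and 4, with 2 females and 2 males in each litter, while the VD pups were 2 females and 3 males of mother 5 and 3 males of mother 6. The groups shared no mother, hence delivery mode and litter can be separated only as far as 2 litters per delivery mode allow, and both VD females belonged to the same litter. A pup is named below by its group and the number in its title.

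Smooth muscle contracts when calcium, bound to calmodulin, switches on myosin light chain kinase, which phosphorylates the light chains of smooth muscle myosin and lets the myosin pull on actin filaments. The filaments are anchored at dense bodies, which are joined by intermediate filaments of desmin. In the colon these cells form the circular and longitudinal layers of the muscularis externa, the thin muscularis mucosae and the walls of vessels. Their contractile genes are known targets of serum response factor and its coactivator myocardin, which act at a short promoter sequence named the CArG box. RNA of the whole tissue mixes muscle with epithelium, connective tissue, nerve and vessel, and fewer muscle cells cannot be told apart from less RNA per muscle cell. All 10 contractile genes had a probe well above background on all 16 arrays, as did 9 of 9 epithelial markers.

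None of the 10 contractile genes passed the test between CSD and VD pups in limma (Benjamini-Hochberg adjusted p between 0.275 and 0.984). Of all genes tested 1.25% were called, with an adjusted p under 0.05, 0.548% as lower and 0.706% as higher in CSD pups. That share rested on single pups and on the model, since its 460 genes became 145 without VD pup 4, 180 without CSD pup 7 and 0 with litter means or the replicate number as a block. The fitted differences were small. They lay between -0.19 (Smtn) and 0.12 (Myocd) on the log2 scale, with a median of -0.12 against 0.00 over all genes. Of the members, 8 of 10 had a value below 0, as had 48.3% of all genes. That count depended on the litters, pups, sexes and slides included. Without the litter of mother 5, 5 of 10 were below 0 (Actg2, Cnn1, Des and Synpo2 turned above 0), and 6 of 10 without VD pup 5. In males only, Actg2, Cnn1, Des and Mylk turned above 0. With a single slide fitted alone, Cnn1, Mylk, Synpo2 and Tagln turned above 0 on the later-numbered slide. On the other slide Myh11 and Myocd turned below 0. Smtn was the only member with an unadjusted p under 0.05, which 14.5% of all genes reached. The ranges of the 8 CSD and the 8 VD pups overlapped in every member, whereas the ranges did not overlap in 0.493% of the genes measured on all arrays. All values below are log2 intensities after normexp background correction and quantile normalization, and differences are CSD minus VD with sex in the model. Levels are not compared between genes, since the brightness of a probe depends on its sequence.

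**Figure D1:**
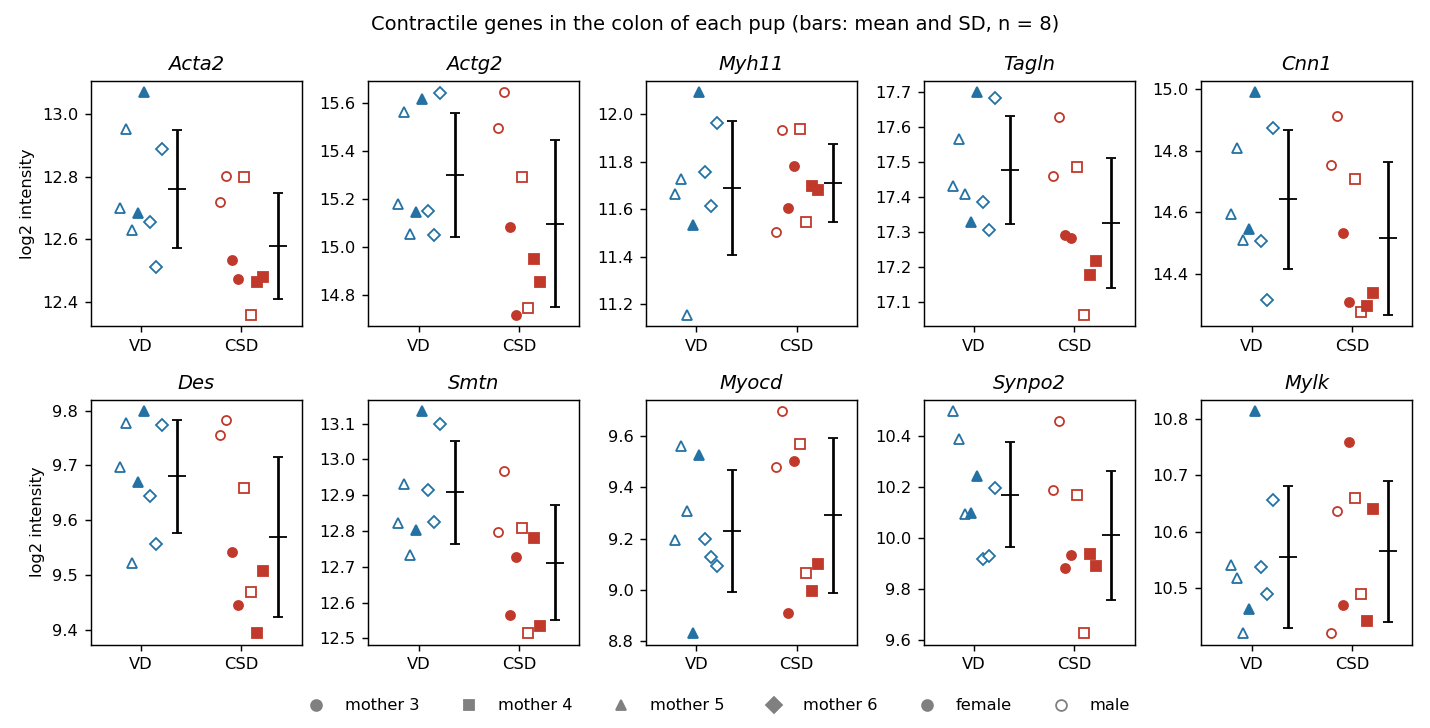
Log2 intensity of the 10 contractile genes in each of 16 pups, with VD in blue and CSD in red, the shape of a point giving the mother, filled points females and open points males. Black bars give the mean and SD of 8 pups; the groups overlapped in all 10 genes, and VD pup 5 was the highest pup in 7 of them.

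The actins and the myosin heavy chain form the contractile filaments. Acta2, which encodes alpha smooth muscle actin of vessels and gut muscle, lay between 12.36 and 12.80 (median 12.51) in CSD pups and between 12.51 and 13.07 (median 12.69) in VD pups. The highest values belonged to VD pups 5, 10 and 8, and 4 of 8 CSD pups lay below every VD pup. The log2 difference of Acta2 was -0.17 (95% interval -0.37 to 0.02, adjusted p = 0.419, limma). Actg2 encodes gamma smooth muscle actin, the enteric form. It lay between 14.72 and 15.64 (median 15.01) in CSD pups and between 15.05 and 15.64 (median 15.17) in VD pups. Over all 16 pups its widest gap lay between 15.29 and 15.49, with 2 CSD pups (8 and 9) and 3 VD pups (5, 8 and 10) above it and the other 11 pups below. Within the CSD group alone the values were spread out over their range, and the gap below CSD pup 6 was as wide as the one above it. The log2 difference of Actg2 was -0.16 (95% interval -0.47 to 0.16, adjusted p = 0.690, limma). Myh11, the smooth muscle myosin heavy chain, lay between 11.50 and 11.94 (median 11.69) in CSD pups and between 11.16 and 12.09 (median 11.70) in VD pups. The CSD pups lay inside the range of the VD pups, whose extremes were VD pup 11 and VD pup 5, and the log2 difference was 0.01 (95% interval -0.24 to 0.26, adjusted p = 0.984, limma).

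Calponin, transgelin and smoothelin bind actin filaments. Tagln, encoding transgelin (SM22), lay between 17.06 and 17.63 (median 17.29) in CSD pups and between 17.31 and 17.70 (median 17.42) in VD pups. CSD pup 7 was the lowest and VD pup 5 the highest, and 5 of 8 CSD pups lay below every VD pup. The log2 difference of Tagln was -0.13 (95% interval -0.31 to 0.05, adjusted p = 0.530, limma). Cnn1, the calponin of differentiated smooth muscle, lay between 14.27 and 14.91 (median 14.43) in CSD pups and between 14.31 and 14.99 (median 14.57) in VD pups. Its ranges were nearly the same at both ends, with 3 of 8 CSD pups below the lowest VD pup (log2 difference -0.10, 95% interval -0.35 to 0.15, adjusted p = 0.759, limma). Smtn encodes smoothelin, a protein of fully contractile cells. It lay between 12.51 and 12.97 (median 12.75) in CSD pups and between 12.73 and 13.14 (median 12.87) in VD pups. VD pups 5 and 8 were the highest, while CSD pups 7, 2 and 3 were the lowest. The log2 difference of Smtn was -0.19 (95% interval -0.36 to -0.02, unadjusted p = 0.0302, adjusted p = 0.275, limma), and the exact two-sided permutation test of the means, which leaves out litter and sex, gave p = 0.0244 (n = 8 per group), without adjustment.

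Desmin and synaptopodin 2 belong to the anchoring apparatus. Des, which encodes desmin, lay between 9.39 and 9.78 (median 9.52) in CSD pups and between 9.52 and 9.80 (median 9.68) in VD pups. CSD pups 8 and 9 were as high as the high VD pups, and 4 of 8 CSD pups lay below every VD pup (log2 difference -0.09, 95% interval -0.22 to 0.04, adjusted p = 0.563, limma). Synpo2, an actin-binding protein of dense bodies and Z-discs, lay between 9.63 and 10.46 (median 9.94) in CSD pups and between 9.92 and 10.50 (median 10.15) in VD pups. CSD pup 9 and VD pup 9 were its highest pups in each group, and the log2 difference was -0.13 (95% interval -0.37 to 0.11, adjusted p = 0.665, limma). Mylk encodes myosin light chain kinase. It lay between 10.42 and 10.76 (median 10.56) in CSD pups and between 10.42 and 10.81 (median 10.53) in VD pups, with almost the same range in both groups (log2 difference -0.01, 95% interval -0.14 to 0.13, adjusted p = 0.979, limma). Myocd, the coactivator myocardin, lay between 8.91 and 9.70 (median 9.29) in CSD pups and between 8.83 and 9.56 (median 9.20) in VD pups. CSD pups 9 and 6 lay above every VD pup, and the log2 difference of Myocd was 0.12 (95% interval -0.15 to 0.39, adjusted p = 0.738, limma).

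**Figure D2:**
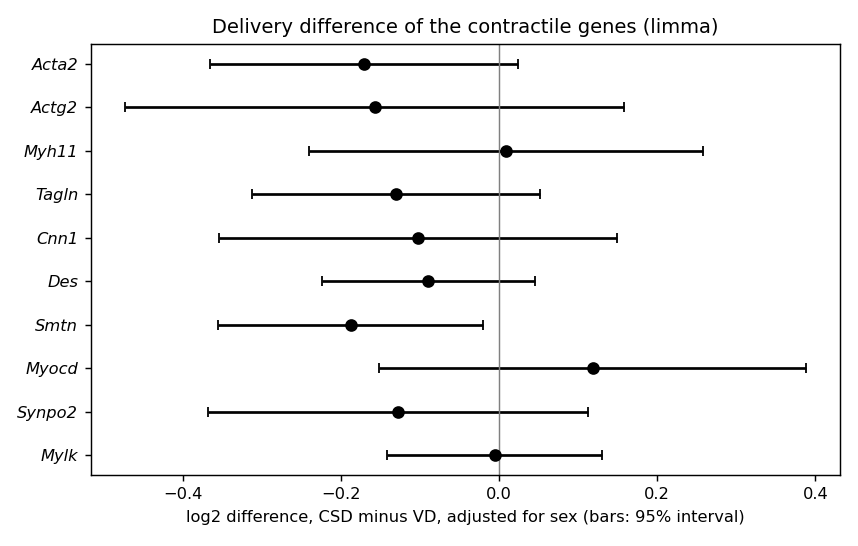
Log2 difference between CSD and VD pups for the 10 contractile genes, adjusted for sex, with 95% intervals from limma (16 pups). The interval of Smtn ends at -0.02, and the intervals of the other 9 genes include 0.

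Pups of the same delivery group also differed from each other, with an SD within groups between 0.12 (Mylk) and 0.31 (Actg2) on the log2 scale. In Smtn this SD was 0.15, smaller than the size of its delivery difference (-0.19), and in Acta2 it was 0.18, about the size of the delivery difference (-0.17). From the lowest to the highest pup, Actg2 spanned 1.91-fold, Myh11 1.91-fold and Synpo2 1.83-fold, whereas Mylk spanned 1.31-fold and Des 1.32-fold. Ranked by their SD within groups, Actg2 stood at the percentile 94.3 of all genes and Mylk at 64.9. These spans and ranks depend on the averaging of probes, of which Actg2 has 1, Des 2 and Mylk 5. The Des probe above background on all arrays (A_51_P335969) ran from 12.51 to 13.29, and the Mylk probe A_52_P575217 from 13.80 to 14.71. The same pups were high or low in gene after gene. VD pup 5 was among the 4 highest pups in all 10 genes, CSD pup 9 in 9 genes and VD pups 8 and 10 in 8 genes. At the other end, CSD pup 7 was among the 4 lowest in 9 genes, CSD pup 1 in 7 genes, and CSD pups 2 and 5 in 6 genes. Summed over the 10 genes, linear intensity ran from 201905 in CSD pup 7 to 308397 in CSD pup 9, and from 236250 in VD pup 7 to 322089 in VD pup 5. Tagln gave the most signal in this sum, which therefore weighs the 10 genes unequally. The share of spots well above background was lowest on the arrays of VD pup 11 (58.7%), CSD pup 7 (61.6%) and CSD pup 1 (61.9%), and between 63.3% and 64.9% on the others, and the part of array quality in the order of the pups was not tested.

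Across the 16 pups all 45 pairs of contractile genes were positively correlated (median Pearson r of 0.60), and 26 of the 45 pairs had an adjusted permutation p under 0.05 (100000 resamples, two-sided, adjusted over the 45 pairs). The pups stem from 4 litters and are not fully independent, which these p-values leave out. Acta2 and Tagln had r = 0.95 and rho = 0.97, and Actg2 and Cnn1 had r = 0.96 and rho = 0.95, each with a permutation p of 1e-05, the smallest that the resamples can give (adjusted p = 5.62e-05). Acta2, Actg2, Tagln, Cnn1, Des, Smtn and Synpo2, put together after their values had been seen, had r between 0.66 and 0.96 among themselves (21 pairs, median 0.87). The median was 0.84 with delivery mode and sex removed, 0.87 on slide 1 and 0.88 on slide 2 (8 arrays each). It was 0.86 without the 2 pups farthest from the median of the first gene of each pair.

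Myh11, Mylk and Myocd followed those 7 genes less closely, with a median r of 0.47 (21 pairs, 0.21 to 0.60). The median was 0.67 on slide 1, 0.16 on slide 2 and 0.59 with delivery mode and sex removed. Myh11 and Mylk, the motor and the kinase that switches it on, were close to each other instead, with r = 0.80 (permutation p = 0.00011, adjusted p = 0.000381) and rho = 0.86. Their r was 0.76 without 2 pups, 0.93 on slide 1 and 0.78 on slide 2. The delivery groups differed in these values. With Acta2, Actg2, Tagln, Cnn1, Des and Smtn, Mylk had r of 0.75 to 0.93 within VD pups and -0.15 to 0.27 within CSD pups. Myh11 had 0.70 to 0.93 within VD pups and 0.26 to 0.62 within CSD pups with the same genes. Synpo2 had 0.18 to 0.60 with them within VD pups and 0.83 to 0.97 within CSD pups. Whether the correlations of Myh11, Mylk and Myocd differ from those of the other 7 was not tested, because the grouping was made on the same values. A difference between the delivery groups was not tested either.

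**Figure D3:**
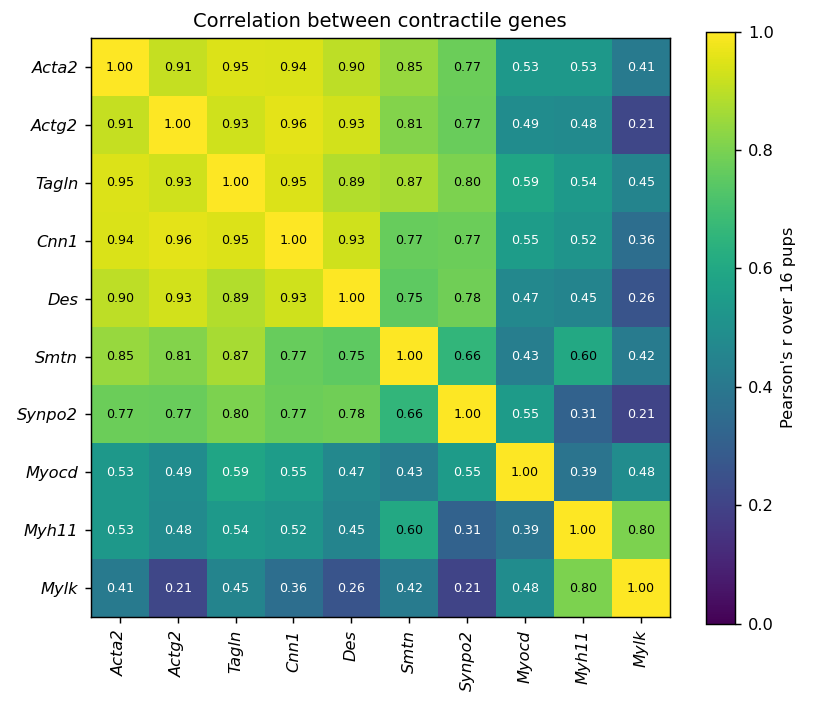
Pearson correlation between each pair of the 10 contractile genes over 16 pups, with the colour running from 0 to 1. Acta2, Actg2, Tagln, Cnn1, Des, Smtn and Synpo2 had values of 0.66 to 0.96 with each other, and Myh11 and Mylk had 0.80 with each other.

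The genes were measured by 25 probes, of which 22 were well above background on all 16 arrays. Of the 25 probes, 18 had a lower mean in CSD than in VD pups, among them all 15 of Acta2, Actg2, Tagln, Cnn1, Des, Smtn and Synpo2. The other 7, all of Myh11, Mylk or Myocd, had a higher one. The former genes were put together after their values were seen, and each had a lower mean as a gene. The count of 15 was thus largely fixed by the grouping, and the share over all probes was not counted. The dim probes were the following. The second Des probe (A_55_P2718707) was above background on 2 of 16 arrays and differed by -0.03 (for single probes, the mean of the CSD pups minus that of the VD pups without adjustment for sex), whereas the other probe (A_51_P335969, chr1:75363404-75363629), above background on all arrays, differed by -0.19. An Acta2 probe (A_52_P644232) was above background on 11 arrays and a Mylk probe (A_55_P2715663) on 15.

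The probes of Myh11 did not move together. Positions are those of the scanner files in mm9, and no gene model of that build was used here, so that exons are not given. Probes A_51_P362429 (chr16:14195223-14198147, which spans more of the genome than its 60 bases and so crosses a splice junction) and A_55_P2733242 (chr16:14249625-14249684) differed by -0.15 and -0.16 (exact permutation test, p = 0.177 and 0.250, without adjustment). The 2 probes between them differed the other way, by 0.14 for A_55_P1988531 (chr16:14202190-14202249) and 0.27 for A_55_P2734582 (chr16:14207835-14208094). The 2 latter probes had r = 0.92 with each other over the 16 pups, but 0.60 and 0.39 with A_51_P362429, and 0.29 and 0.11 with the probe of Actg2. With the Mylk probes A_51_P286146, A_52_P575217 and A_55_P2728282 they had r between 0.47 and 0.72, but 0.11 and 0.04 with the Mylk probe A_55_P1997375 and 0.28 and 0.34 with A_55_P2715663. These values are a description, since the probes were picked for it. The sequences of the 2 inner Myh11 probes and of 2 of these Mylk probes are given so that their targets can be looked up, in lower case throughout because no part of them is singled out. The Mylk probes lie at chr16:34986620-34986679 and chr16:34996839-34996898 of mm9.
Myh11 A_55_P1988531 (minus strand): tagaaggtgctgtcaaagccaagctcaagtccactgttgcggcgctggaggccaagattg
Myh11 A_55_P2734582 (minus strand): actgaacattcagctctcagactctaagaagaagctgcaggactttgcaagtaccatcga
Mylk A_55_P2728282 (plus strand): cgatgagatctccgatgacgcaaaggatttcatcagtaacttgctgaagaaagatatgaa
Mylk A_52_P575217 (plus strand): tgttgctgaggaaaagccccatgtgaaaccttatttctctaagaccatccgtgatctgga

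In A_55_P2734582 the CSD pups lay at 12.18 ± 0.26 and the VD pups at 11.91 ± 0.40 (SD, n = 8), with CSD pup 8 at 11.63 well below the other CSD pups and VD pup 11 at 11.21 below all others. In A_51_P362429 the CSD pups lay at 13.26 ± 0.11 and the VD pups at 13.41 ± 0.28 (SD, n = 8), and VD pup 11 was again the lowest, at 12.89. The level of Myh11 as a gene is thus a mean over probes whose differences, none of them clear of 0, had opposite signs. Its difference without adjustment for sex was 0.02. In Mylk, whose difference as a gene was 0.01 without that adjustment and -0.01 with it, the probes A_51_P286146, A_52_P575217 and A_55_P2728282 differed by 0.01 to 0.03, A_55_P2715663 by 0.10 and A_55_P1997375 by -0.11.

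**Figure D4:**
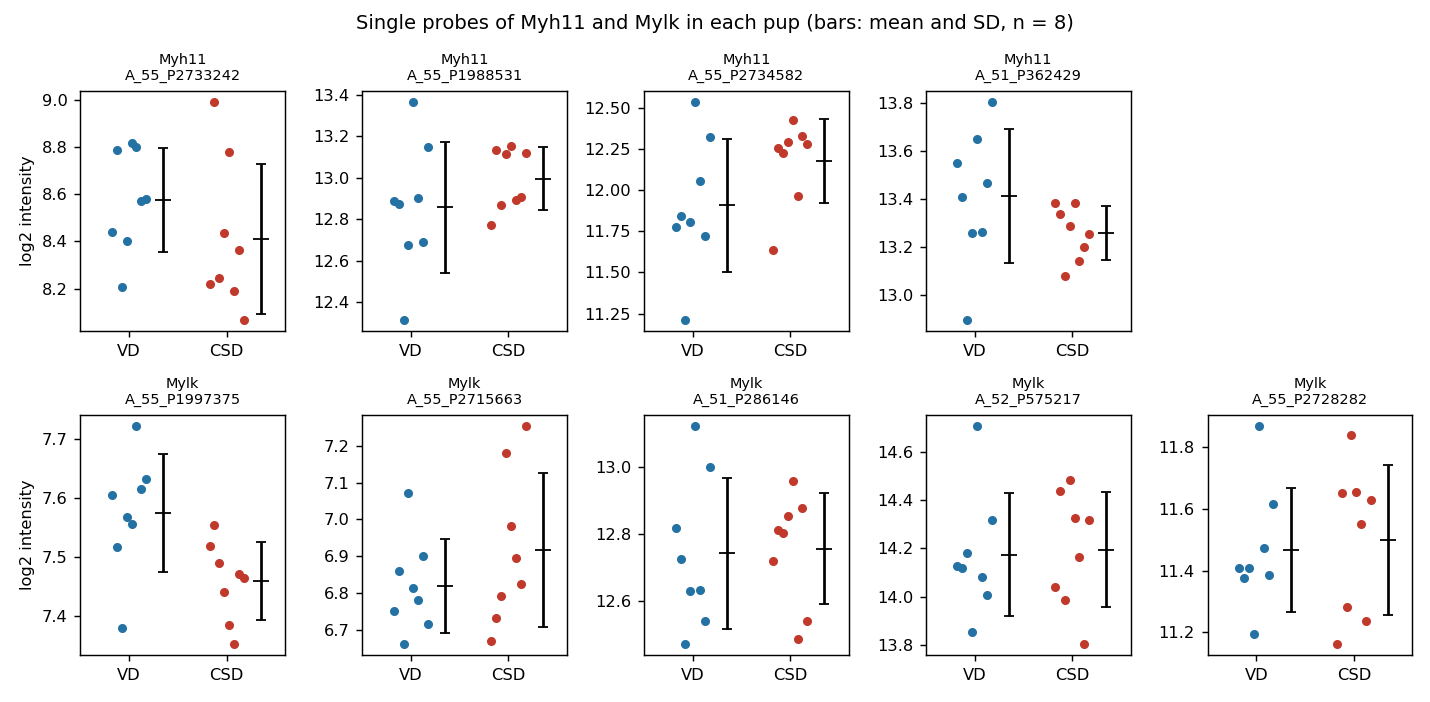
Log2 intensity of the 4 probes of Myh11 and the 5 probes of Mylk in each pup, VD in blue and CSD in red, with the mean and SD of 8 pups as black bars. The probes A_55_P1988531 and A_55_P2734582 of Myh11 were higher in CSD pups on average, and A_51_P362429 and A_55_P2733242 were lower.

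Promoter windows were held by the RefSeq table (GRCm38.p6) for 6 of the 10 genes, namely Acta2, Cnn1, Des, Smtn, Synpo2 and Mylk. Windows of 250 bases before and 50 bases after the start of each gene were searched for the CArG box and the MEF2 site, which are 10 letters each and read the same on both strands. The CArG box was found in 0 of the 6 windows and in 1.63% of 32851 windows of all genes. With 1 of its inner letters allowed to differ it was found in Acta2 alone of the 6, and there at 2 places, 84 and 34 bases before the start. Such a match occurred in 9.98% of all windows, and 2 or more in 0.822%. The MEF2 site, bound by factors such as that encoded by Mef2c, was found in Synpo2, 236 bases before the start, and in 3.19% of all windows. No match of the former lay on a match of the latter in these genes. A match describes the letters of the window and nothing about binding. The 250 bases before the start of the 2 genes with a match are printed on the minus strand, on which both genes lie, with the matches in capitals (Acta2 chr19:34255374-34255623, Synpo2 chr3:123236150-123236399).
Acta2: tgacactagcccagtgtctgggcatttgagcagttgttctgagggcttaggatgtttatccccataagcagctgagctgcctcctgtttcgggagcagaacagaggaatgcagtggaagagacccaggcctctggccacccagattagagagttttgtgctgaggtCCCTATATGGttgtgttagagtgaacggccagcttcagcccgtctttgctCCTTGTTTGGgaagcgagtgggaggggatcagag
Synpo2: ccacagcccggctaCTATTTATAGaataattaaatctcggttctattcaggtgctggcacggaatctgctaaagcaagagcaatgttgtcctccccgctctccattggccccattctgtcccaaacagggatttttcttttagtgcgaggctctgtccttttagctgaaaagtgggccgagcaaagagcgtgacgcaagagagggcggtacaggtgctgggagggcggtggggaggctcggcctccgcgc

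Between the sexes, none of the 10 genes was called (adjusted p between 0.832 and 0.960, limma), against 0.0599% of all genes, and 8 of 10 were lower in females, as were 51.8% of all genes. Myocd had the largest log2 difference, -0.22 in females against males (standard error 0.13, unadjusted p = 0.106). An unadjusted p under 0.05 was seen in 0 of 10 members and in 6.45% of all genes. The delivery by sex interaction, which asks whether the delivery difference was the same in both sexes, was not past the threshold in any member (adjusted p = 0.981 for each), against 0.00272% of all genes. Its fitted value was below 0 in all 10 members, as it was in 46.4% of all genes. A value below 0 means that the difference CSD minus VD was lower in females than in males. In Des the mean was 9.47 in 4 CSD females and 9.73 in 2 VD females, but 9.67 in 4 CSD males and 9.66 in 6 VD males. The interaction of Des was -0.27 (standard error 0.11, unadjusted p = 0.0333, limma), an unadjusted level reached by 4.72% of all genes. In Acta2 the corresponding means were 12.49 and 12.88 in females and 12.67 and 12.72 in males (interaction -0.33, standard error 0.17, adjusted p = 0.981, limma). One of the 2 VD females is VD pup 5, the highest pup in 7 genes, and the other is VD pup 4, the lowest pup in Myocd. The females of VD came from mother 5 alone, thus the comparison of the sexes within VD sets 2 females against 6 males. Only 3 of these males shared the litter of the females, so that sex and litter are partly mixed within VD.

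Litters of the same delivery mode were compared with sex in the model, while the litter means given are plain means of all pups of a litter. Between the CSD litters 0 of 10 genes were called (adjusted p between 0.757 and 0.996, limma), against 0.0872% of all genes, and 9 of 10 genes were higher in the litter of mother 3, as were 51.2% of all genes, with a median log2 difference of 0.15 against 0.00 over all genes. Actg2 was 15.23 on average in the litter of mother 3 and 14.96 in that of mother 4 (log2 difference 0.28, unadjusted p = 0.182), and an unadjusted p under 0.05 was seen in 0 of 10 members and in 7.68% of all genes. Between the VD litters 0 of 10 were called, against 0.874% of all genes, and 7 of 10 were higher in the litter of mother 5, as were 52% of all genes. Synpo2 had the smallest p there, with plain means of 10.26 for the 5 pups of mother 5 and 10.02 for the 3 males of mother 6 (log2 difference adjusted for sex 0.32, standard error 0.14, unadjusted p = 0.0356, adjusted p = 0.380, limma), an unadjusted level reached by 11.5% of all genes. In Acta2, Actg2, Tagln, Des and Smtn, 5 of the 10 genes, both VD litter means lay above both CSD litter means, as they did in 20.3% of all genes. In Smtn, for example, they were 12.89 and 12.95 in the VD litters of mothers 5 and 6 against 12.76 and 12.66 in the CSD litters of mothers 3 and 4.

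Genes that work beside the 10 members were taken as lists, chosen with earlier results of these data known, so that their counts are a description. Over all genes 1.25% were called and 48.3% had a value below 0. Among 12 partners of the thin and thick filaments (tropomyosins, light chains, filamin and the like), 0 were called, 10 were lower in CSD pups and the median log2 difference was -0.09. Cnn2, a calponin of many cell types, had the smallest p, at 10.55 ± 0.19 in CSD and 10.91 ± 0.13 in VD pups (SD, n = 8), with a log2 difference of -0.34 (adjusted p = 0.0544, limma), followed by Tpm2, a tropomyosin of muscle, with -0.21 (adjusted p = 0.264). Among 14 partners of dense bodies and intermediate filaments 0 were called and the median was -0.03. Pdlim7, a PDZ and LIM protein of the actin cytoskeleton, differed by -0.18 (adjusted p = 0.239) and Csrp1, a LIM protein of smooth muscle, by -0.14 (adjusted p = 0.390). Of 23 genes of contraction signalling 0 were called, 14 had a value above 0 and the median was 0.02. Rock1, a kinase that restrains myosin phosphatase, differed by 0.19 (adjusted p = 0.103, limma) and Gucy1b3, a subunit of the nitric oxide receptor guanylate cyclase, by -0.24 (adjusted p = 0.136).

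Of 12 receptors of gut motility 1 was called, against 1.25% of all genes. Ednra, the endothelin receptor type A of smooth muscle, was 8.21 ± 0.08 in CSD and 8.41 ± 0.06 in VD pups (SD, n = 8), and all 8 CSD pups lay below all 8 VD pups. It was lower in CSD pups by a log2 difference of -0.17 (standard error 0.04, adjusted p = 0.0395, limma). Of 13 transcription factors and coactivators of contractile genes 3 were called, 1 higher and 2 lower in CSD pups, against 0.706% of all genes called higher and 0.548% called lower. Mkl2 (Mrtfb), an actin-regulated coactivator of serum response factor, was 8.39 ± 0.05 in CSD and 8.22 ± 0.07 in VD pups (SD, n = 8). It was higher in CSD pups by 0.15 (standard error 0.03, adjusted p = 0.0404, limma), with all 8 CSD pups above all 8 VD pups. Of the genes measured on all arrays, the ranges of the groups did not overlap in 0.493%. Tcf21, a factor of mesenchymal precursors, was 9.91 ± 0.19 in CSD and 10.43 ± 0.19 in VD pups (SD, n = 8), and was lower in CSD pups by a log2 difference of -0.57 (standard error 0.08, adjusted p = 0.00571, limma), with 7 of 8 CSD pups below every VD pup. Mef2c, which is also used outside muscle, was lower by a log2 difference of -0.29 (adjusted p = 0.0449, limma). The calls of Ednra, Mkl2 and Mef2c depended on the processing and on single pups and litters, and were kept in 14, 12 and 13 of 38 other settings, against 32 for Tcf21. Over those settings the log2 difference ran from -0.41 to -0.11 in Ednra, from 0.07 to 0.29 in Mkl2, from -0.58 to -0.21 in Mef2c and from -0.62 to -0.48 in Tcf21.

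**Figure D5:**
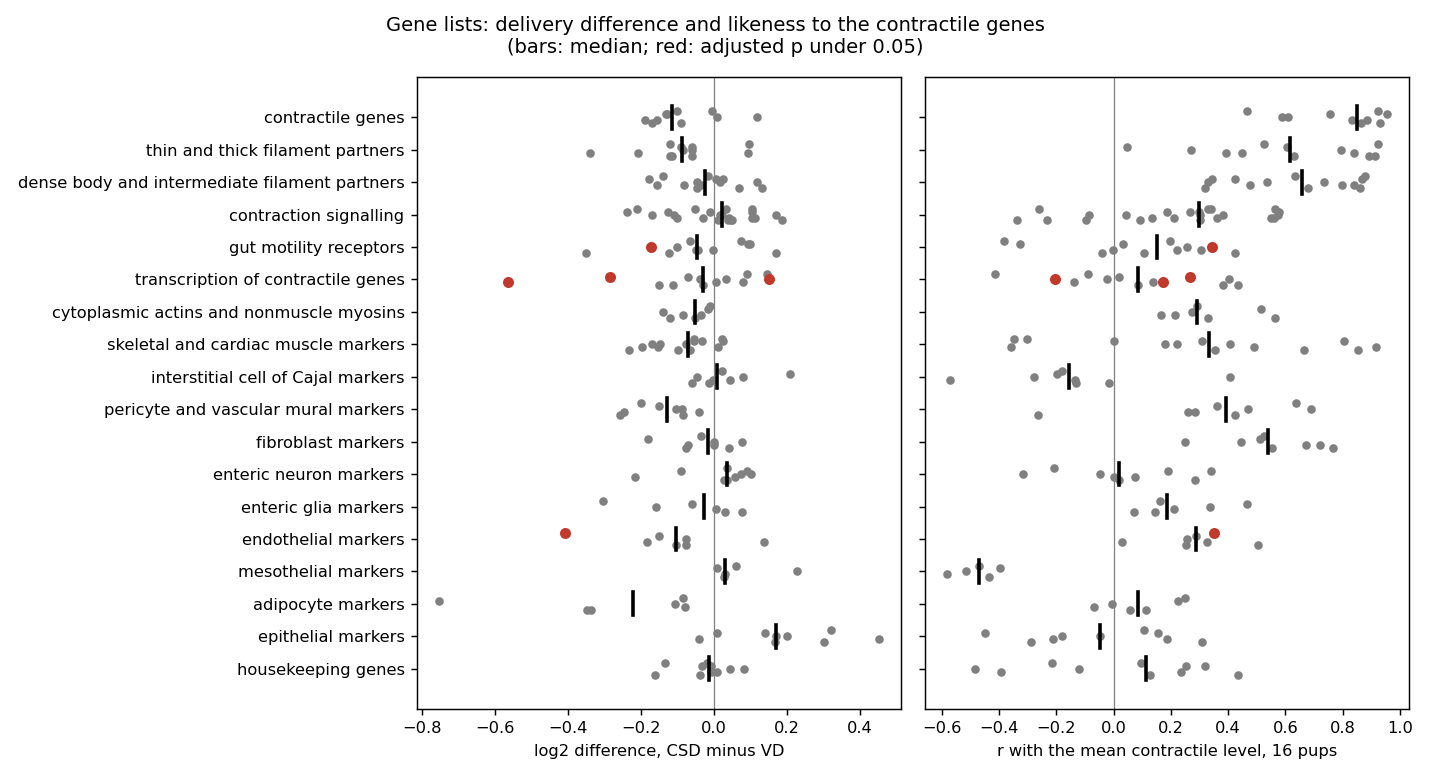
The 10 contractile genes and 17 other lists, with 1 point per gene, a black bar at the median of a list and genes with an adjusted p under 0.05 in red. The left panel gives the log2 difference between CSD and VD pups, the right panel Pearson's r with the mean standardised level of the contractile genes (for a member, of the other 9) over 16 pups; the 5 red genes are Ednra, Mkl2, Mef2c, Tcf21 and Egfl7.

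The genes that followed the contractile genes most closely across the 16 pups were looked for among 20537 other genes with a probe well above background on every array, by Pearson's r with the mean standardised level of the 10 members. Among the 10 highest were Flna (0.92), Actc1 (0.92), Lmod1 (0.91), Actn1 (0.89), NAP111445-1 (0.89), Csrp1 (0.88), Cfl2 (0.88), Col4a1 (0.87) and Pdlim7 (0.87), and the median of all genes ranked was -0.01. Flna (filamin A, which crosslinks actin) kept r = 0.91 without VD pup 5 and CSD pup 9, and had 0.94 on slide 1 and 0.92 on slide 2. Lmod1 (leiomodin, which nucleates actin filaments) kept 0.88, with 0.92 and 0.94 on the slides. NAP111445-1, a probe name with no gene symbol, kept 0.91. Actc1 is the actin of cardiac muscle and a close paralog of Acta2 and Actg2, and whether its probes share their signal was not tested. None of these 9 was called between CSD and VD pups.

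Markers of other cells were set beside the contractile genes, each list with the median of its members' r with the mean contractile level. Where a gene is said to give the most signal of a list, the signal is that of its probes and not a level of RNA set against the other genes. Among 14 skeletal and cardiac muscle markers 0 were called and 11 were lower in CSD pups. Actc1 gave the most signal, Myog was above background on 0 arrays, the median r was 0.33, and the smallest p were those of Ryr1 (-0.15, adjusted p = 0.0889) and Acta1 (-0.23, adjusted p = 0.253). Of 7 cytoplasmic actins and nonmuscle myosins 0 were called and 7 had a value below 0 (median -0.05, median r 0.29), with Myh9 at -0.14 (adjusted p = 0.257) and Actb at -0.12 (adjusted p = 0.345). Of 8 pericyte and vascular mural markers 0 were called and 8 had a value below 0 (median -0.13, median r 0.39), with Notch3 at -0.25 (adjusted p = 0.124) and Abcc9 at -0.26 (adjusted p = 0.160). Of 7 endothelial markers 1 was called, against 1.25% of all genes, and 6 had a value below 0 (median r 0.29). Egfl7, a secreted protein of endothelium, was called, at 12.40 ± 0.18 in CSD and 12.85 ± 0.13 in VD pups (SD, n = 8), lower in CSD pups by a log2 difference of -0.41 (adjusted p = 0.0123, limma). Its 8 CSD pups lay below its 8 VD pups (no overlap in 0.493% of the genes measured on all arrays), and the call was kept in 31 of 38 other settings. It was lost on either slide alone, in males only, with litter means, with the replicate block and without the litter of mother 3 or of mother 5 (adjusted p up to 0.308).

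Fibroblast markers were the other cell list that moved most closely with the contractile genes, with a median r of 0.54 over 8 genes. None of them was called, 4 of 8 were lower in CSD pups, and Dcn, which gave the most signal, had the smallest p (-0.18, adjusted p = 0.363), followed by Pdgfra (-0.08, adjusted p = 0.608). Their summed intensity ran from 77257 in CSD pup 1 to 110541 in CSD pup 5 and from 90416 in VD pup 7 to 113030 in VD pup 10. Mesothelial markers ran the other way, with r between -0.58 and -0.40 in 5 of 5 genes, of which Lrrn4 was well above background on 8 of 16 arrays and Upk3b on 11. Their sum was highest in CSD pups 5 (2268) and 7 (1961) and lowest in VD pup 8 (486), CSD pup 8 (594) and CSD pup 1 (604). CSD pup 7 was the lowest of all pups in mean contractile level and VD pup 8 the third highest, but CSD pup 1, with a low mesothelial sum, was the second lowest in contractile level. None of the 5 was called, and 5 of 5 had a value above 0. The smallest p were those of Lrrn4 (adjusted p = 0.703) and Upk1b (0.06, adjusted p = 0.808). No size is given for Lrrn4 because it was dim on 8 of 16 arrays. Interstitial cells of Cajal, the pacemakers of gut muscle, had 0 of 8 markers called and a median r of -0.16. Of these markers 4 were higher and 4 lower in CSD pups (median 0.01), with Thbs4 at 0.21 (adjusted p = 0.185) and Etv1 at 0.08 (adjusted p = 0.758). Enteric neurons had 0 of 9 called, 7 higher and 2 lower in CSD pups (median 0.04) and a median r of 0.02, with Nos1 at 0.10 (adjusted p = 0.421) and Uchl1 at -0.22 (adjusted p = 0.474). Enteric glia had 0 of 6 called, 3 higher and 3 lower in CSD pups (median -0.03) and a median r of 0.19, with Sox10 at -0.16 (adjusted p = 0.381) and Gfra3 at -0.31 (adjusted p = 0.586).

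Epithelial markers had 0 of 9 called, 8 of 9 above 0 in CSD pups and a median log2 difference of 0.17, opposite in sign to that of the contractile genes. Slc26a3, a chloride exchanger of colonocytes, differed by 0.45 (adjusted p = 0.113, limma) and Epcam by 0.17 (adjusted p = 0.257). Across the pups, however, their median r with the contractile level was -0.05. Their summed intensity, of which Krt8 gave the most signal, was 359357 to 497297 in CSD pups (median 405466) and 366919 to 469820 in VD pups (median 406716). The summed intensity of 6 adipocyte markers ran from 2360 in CSD pup 1 to 53325 in CSD pup 7 and from 8741 in VD pup 8 to 56549 in VD pup 6, with Cfd giving the most signal and a median r of 0.09. The SD of Cfd was 1.92 in CSD and 0.95 in VD pups on the log2 scale, whereas that of Lep was 0.07 in both groups. None of the 6 was called, and 6 of 6 had a value below 0 (median -0.22), as had 48.3% of all genes. Lep (-0.08, adjusted p = 0.328) and Cfd (-0.75, adjusted p = 0.707) had the smallest p. Of 10 housekeeping genes 0 were called (median -0.01, median r 0.11), with Gapdh at -0.16 (adjusted p = 0.167) and Gusb at -0.13 (adjusted p = 0.229). The part of each of these cell types in the spread of the contractile genes between pups was not tested.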

How the data were processed

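RNA of 16 colon samples was measured on 1-colour Agilent arrays. For each array the authors deposited scanner files with a mean intensity and a median background intensity per spot. They also deposited log2 values of 27036 genes, which they corrected, quantile normalized, filtered on dim probes and averaged by gene in limma 3.38. The genome build of the probe positions is mm9, as the scanner output gives it. From the mean intensity, normexp background correction (offset 50) was applied with limma 3.58.1 in R 4.3.3. Control spots and outlier-marked spots (65 to 205 per array) were left out, log2 values were quantile normalized, 56366 of 56605 probes passed a filter (above the 5% quantile in 4 arrays or more), and the probes of each gene name were averaged. Each of 36711 genes was fitted on delivery mode and sex, with the mother as a random block (duplicateCorrelation, consensus correlation 0.02), with Benjamini-Hochberg adjustment over all genes. Litters were compared in a model with 1 level per mother and with sex as a further term. Exact permutation tests of group means used all 12870 assignments of the pups, and their smallest possible p is 0.000155. The model was tested on simulated data, but the outcome is not reported here, so that test lends no weight to the calls. The 0 saturated spots and the share of spots well above background give the range of the signal, and the few litters and arrays set the precision. Delivery mode was the same for all pups of a litter, so pups of a litter are not independent replicates of it. The p-values measure the spread between pups. They allow for litter only through the correlation of 0.02, which was estimated from 4 litters. With litter means as samples, 0 genes were called between CSD and VD.

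The 10 genes and all lists were chosen with earlier results of these data known. Genes named are the 10 members, the called genes of each list or otherwise the 2 with the smallest p, the 10 genes most correlated with the members (1 of which is not reported here), and the pups at the extremes of a member. Outside this rule, and chosen after their values were seen, stand the gene of most signal in a list (Krt8, for example) and Myog and Upk3b, named for their dim probes. The probes of Myh11 and Mylk and the correlation groups were picked after their values were seen. Alternatives were other background corrections, scalings, filters and probe rules, the deposited matrix, models without mother or sex or with slide or replicate number, litter means, males alone, each slide alone, another threshold, and leaving out each pup or litter.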

Additional observations from a re-analysis of the deposited data

How the results depend on the processing

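The count of contractile genes called stayed at 0 in each comparison under all alternatives run, that is, 38 for CSD against VD and 22 for each of the sexes, the interaction and the litters. Acta2 and Smtn kept a value below 0 in 38 of 38 alternatives, between -0.32 and -0.02 and between -0.30 and -0.08, and Smtn had adjusted p between 0.160 and 0.835 in them. In males only, Actg2 was 0.0206, Cnn1 0.0607, Des 0.0047 and Mylk 0.0250. On slide 2 alone, Cnn1 was 0.0358, Mylk 0.16, Synpo2 0.0916 and Tagln 0.0137, while on slide 1 alone Myh11 was -0.25 and Myocd -0.22. Acta2 was -0.32 on slide 1 alone and -0.0255 on slide 2 alone, and Actg2 was -0.31 and -0.0092. Myh11 was -0.0031 with the scanner-corrected signal quantile normalized, -0.15 with the brightest probe per gene and -0.0060 in the deposited matrix. Mylk was 0.0184 with the scanner-corrected signal minus the 75th percentile, 0.0195 with the brightest probe, 0.0089 with litter means and 0.0100 without sex. The adjusted p of none of these values was under 0.387. Over all 38 alternatives Myocd ran from -0.22 to 0.45, Myh11 from -0.25 to 0.27 and Synpo2 from -0.35 to 0.0961. Leaving out a pup or a litter gave ranges of -0.35 to 0.0132 for Actg2, -0.25 to 0.0971 for Cnn1, -0.17 to 0.0080 for Des, -0.0548 to 0.10 for Myh11, -0.0404 to 0.0471 for Mylk, -0.0116 to 0.32 for Myocd, -0.27 to 0.0961 for Synpo2, -0.24 to -0.0417 for Tagln, -0.25 to -0.0162 for Acta2 and -0.26 to -0.12 for Smtn. Without the litter of mother 5, Actg2, Cnn1, Des and Synpo2 turned above 0 and Acta2 was -0.0162, and without that of mother 3 Myocd turned below 0. Without VD pup 5, Cnn1 was 0.0013, Acta2 -0.0882, Smtn -0.12, Tagln -0.0616, Actg2 -0.0455, Des -0.0455 and Myocd 0.23. Without CSD pup 7, Actg2 was -0.0698, Tagln -0.0710, Cnn1 -0.0451, Synpo2 -0.0395 and Myocd 0.18. Without CSD pup 9, Actg2 was -0.25, Cnn1 -0.17, Synpo2 -0.20 and Myocd 0.0607, and without VD pup 4 Myocd was 0.0580.

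Over all genes, 460 were called in the comparison reported. The count was 177 and 164 with the scanner-corrected signal (quantile normalized or minus the 75th percentile), 102 with offset 0, 170 in the deposited matrix, 992 without sex, 12 on slide 1 alone, 1126 at an adjusted p under 0.1, and 0 in males only, on slide 2 alone and with litter means. Leaving out a pup or a litter gave 138 (without the litter of mother 4) to 2265 (without that of mother 6). It was 145 without VD pup 4 and 304 without VD pup 11, 243 without VD pup 5, and 180, 222, 238, 257, 271, 278 and 300 without CSD pups 7, 9, 3, 6, 5, 1 and 2. The cause was not tested. Tcf21 stayed called in 32 of 38 alternatives, Egfl7 in 31, Ednra in 14, Mef2c in 13 and Mkl2 in 12, each with its sign kept.

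Numbers in the titles shared by the groups (5 to 9) were not taken to pair the pups. The correlation of the deviations of same-numbered pups lay between -0.05 and 0.22. Pups of different numbers were not set beside them, so whether the numbers pair the pups was not tested. With the number as a replicate block, 0 contractile genes and 0 genes in all were called, and Myh11 was -0.0762. The design has only 2 litters per delivery mode, and 3 of the 25 contractile gene probes were not above background on all arrays.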
